A study of Mus musculus with 6 samples.

Results

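The genes described here are 10 that mark the Purkinje cell or help to specify it: Calb1, Pcp2, Pcp4, Gng13, Ppp1r17, Rora, Foxp2, Lhx1, Lhx5 and Skor2. They were taken by name from the 55487 genes counted, and all 10 passed the filter on low counts that left 18237 genes for testing. The counts come from whole cerebella of male mice at postnatal day 14, 1 animal per library, from 3 homozygous Galnt17 knockouts (KO; strain labelled Wbscr17KOKO, and Wbscr17-/- in the protocols, after the older name of the gene) and 3 B6C3 wild-type animals (WT). B6C3 denotes a cross of the C57BL/6J and C3H/He strains. The knockout allele, Galnt17tm1.1(KOMP)Vlcg, came from a mouse repository as sperm and was first bred in C57BL/6J, where per the labels homozygous pups were not born alive, and then in B6C3. No Cre line or cell type is named for the knockout, and the labels do not give the genotype of these hybrids at other loci. Galnt17 encodes an enzyme of the family that starts mucin-type O-glycosylation. Its level was 2.99 ± 0.526 CPM in KO and 45.3 ± 2.21 CPM in WT (mean ± SD, n = 3 each), so the groups stood as labelled. CPM is the count of a gene scaled to the size of its library.

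Purkinje cells are the large GABAergic neurons whose axons carry the output of the cerebellar cortex, and each receives input from many granule cells and from a climbing fibre. They arise from progenitors of the ventricular zone, where the homeodomain genes Lhx1 and Lhx5 and the corepressor gene Skor2 act after the last division, and Foxp2 marks the young neurons. The nuclear receptor Rora then drives the growth of their dendrites and the expression of mature genes, and mice that lack it (staggerer) are ataxic. Calb1, Pcp2, Pcp4, Gng13 and Ppp1r17 encode cytoplasmic or membrane-bound signalling proteins that Purkinje cells hold in large amounts once mature.

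Promoter sequence is shown for the pair of genes that passed the test, Pcp2 and Gng13, and for Pcp4, which like Pcp2 is known as a Rora target. Of the 10 genes, the windows of 5 were searched, taken from the RefSeq promoter table (GRCm38.p6). Calb1, Ppp1r17, Foxp2 and Lhx5 had no entry, and Skor2 was left out of the search, so its window was not tested. The 250 bases before the start are given 5′ to 3′ on the strand of the gene, with capitals on the Rora core site, AGGTCA or on the opposite strand TGACCT, and on the forkhead core, TGTTTA. Both strands were searched for each motif.
Pcp2, chr8:3625548-3625797, minus strand: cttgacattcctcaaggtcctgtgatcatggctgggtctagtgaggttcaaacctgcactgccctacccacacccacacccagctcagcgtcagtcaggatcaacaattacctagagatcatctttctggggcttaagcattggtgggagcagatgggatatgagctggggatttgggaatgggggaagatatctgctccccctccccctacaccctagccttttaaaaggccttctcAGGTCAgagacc
Pcp4, chr16:96467356-96467605, plus strand: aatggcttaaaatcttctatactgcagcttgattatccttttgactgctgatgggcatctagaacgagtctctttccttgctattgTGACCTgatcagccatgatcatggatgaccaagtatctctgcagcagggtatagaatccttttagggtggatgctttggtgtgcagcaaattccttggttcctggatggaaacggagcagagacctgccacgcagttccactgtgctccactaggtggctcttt
Gng13, chr17:25716922-25717171, plus strand: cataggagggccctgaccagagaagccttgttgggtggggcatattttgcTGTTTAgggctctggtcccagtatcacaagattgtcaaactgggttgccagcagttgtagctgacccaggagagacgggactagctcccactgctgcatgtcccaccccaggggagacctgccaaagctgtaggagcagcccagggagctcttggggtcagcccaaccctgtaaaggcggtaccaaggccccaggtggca
The Rora core site lay 12 to 7 bases before the start in Pcp2 and, on the opposite strand, 164 to 159 bases before it in Pcp4. The forkhead core lay 200 to 195 bases before the start of Gng13. Neither motif was in the windows of Rora and Lhx1, the other genes searched. The LIM homeodomain core TAATTA, the same on both strands, was in none of the 5 windows. Over all 32851 promoters of the table, 14% held the Rora core site, 12% the forkhead core and 4.84% the homeodomain core in these 250 bases, and the motifs share no overlap with each other in the windows shown.

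Libraries held 17111611 to 29840046 reads counted in genes. Unmapped reads made up 13.8% to 17.2% in the KO libraries and 6.52% to 10.03% in the WT libraries. The groups thus differed in this measure of library quality without overlap, and its part in the fold changes below was not tested. The KO libraries lay closer to each other than the WT libraries did, the SD of log2 CPM over the 3 replicates having a median of 0.05 in KO and 0.10 in WT (10687 genes). In WT replicate 1 genes of high GC content were lower (Spearman correlation across genes of GC content with the deviation from the mean of all libraries -0.22, against -0.07 to 0.14 in the others). WT replicate 3 stood apart by genes of brainstem neurons, given below with Foxp2. The labels name the animals as biological triplicates and give no litter or batch. Because the tissue is a whole cerebellum, a change in the share of Purkinje cells and a change in RNA per cell cannot be told apart in any value below.

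Of the 10 genes, 2 rose in KO, Gng13 and Pcp2, and 0 fell (edgeR's quasi-likelihood test, Benjamini-Hochberg adjusted p below 0.05 over all genes tested). Over all tested genes 0.784% were called higher and 0.872% lower. Among the other 8 genes, Rora, Calb1, Ppp1r17 and Pcp4 had every KO library above every WT library without passing the test. Lhx1, Lhx5, Skor2 and Foxp2 overlapped between the groups. All KO libraries were thus above all WT libraries in 6 of the 10 genes, where 11.5% of all tested genes had this order. An unadjusted p below 0.05 with a higher KO level was found in 5 of the 10, against 8.57% of all tested genes, and with a lower KO level in 0 of the 10, against 8.99%. The median log2 fold change of the 10 was 0.17, and that of all tested genes -0.01. DESeq2, run on the 33485 genes with any count, and edgeR's exact test also called 0 of the 10 lower.

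**Figure D1:**
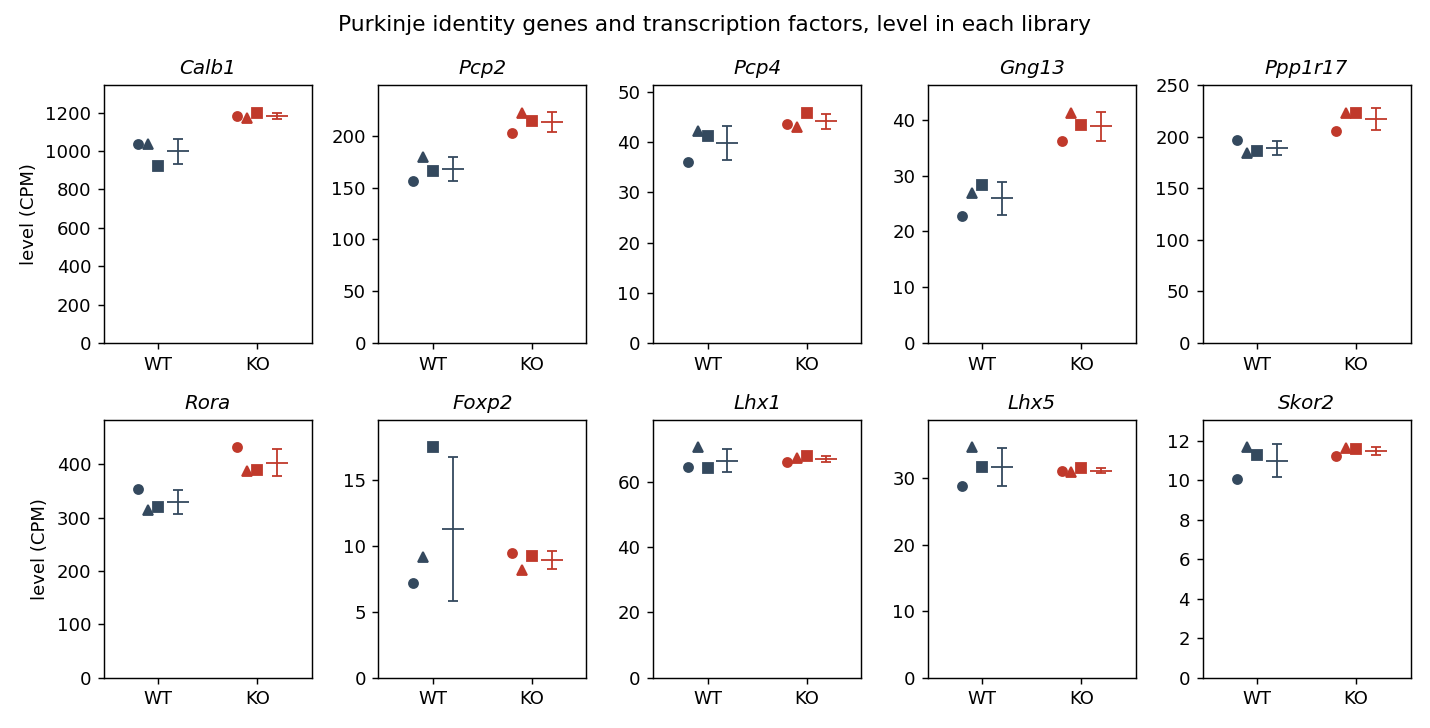
Level of each of the 10 genes in CPM on an axis from 0, WT on the left and KO on the right. Circles, triangles and squares are replicates 1, 2 and 3, and the bar beside them is the mean ± SD of 3 animals. The KO points lie above the WT points in Calb1, Pcp2, Pcp4, Gng13, Ppp1r17 and Rora, and the groups overlap in the other four.

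Gng13 (ENSMUSG00000025739, chromosome 17, 25717171 to 25719406, plus strand, GRCm38) encodes a gamma subunit of heterotrimeric G proteins. It was counted at 36.2, 41.3 and 39.1 CPM in KO replicates 1, 2 and 3 and at 22.7, 26.9 and 28.4 CPM in WT replicates 1, 2 and 3. The lowest KO library was well above the highest WT library. The means were 38.9 ± 2.59 against 26.0 ± 2.95 CPM, 1.499-fold higher in KO (log2 fold change 0.58, SE 0.09, edgeR adjusted p = 0.0123). This was the largest change of the 10 genes, and it exceeded in size that of 91.5% of all tested genes. The call was lost without KO replicate 2 (edgeR adjusted p = 0.0924), KO replicate 3 (0.0628) or WT replicate 2 (0.0534), with log2 fold changes between 0.49 and 0.66 whichever library was left out.

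Pcp2 (L7; ENSMUSG00000004630, chromosome 8, 3623371 to 3625545, minus strand) encodes a GoLoco protein that binds G protein alpha subunits, and its promoter is widely used to direct transgenes to Purkinje cells. Its levels were 203, 222 and 215 CPM in KO and 157, 179.8 and 166 CPM in WT. Here too the groups did not overlap. The means were 213 ± 9.72 against 168 ± 11.6 CPM, 1.27-fold higher in KO (log2 fold change 0.35, SE 0.06, edgeR adjusted p = 0.0261). Without KO replicate 1, 2 or 3 the edgeR adjusted p was 0.0700, 0.171 and 0.125, while it stayed below 0.05 without any 1 of the WT replicates. Gng13 and Pcp2 varied together over the 6 libraries (Pearson r of log2 CPM 0.97, n = 6, a description that includes the difference between the groups).

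Both genes share exons with a gene on the other strand, and the library kit did not keep strand: the first strand column held 49.94% to 49.99% of the counts of both. A read that touches such shared exons was left out of the unstranded counts used above. The 2 strand columns add it back, so their sum less the unstranded count gives the reads in shared exons. For Gng13 the partner is Chtf18, a gene of sister chromatid cohesion, and the annotated shared exons are chr17:25718927-25719284 and chr17:25719366-25719406. These 399 bases are 51.6% of the exon sequence of Gng13, 103 of them coding in Gng13 and the rest annotated as untranslated. For Pcp2 the partner is Pet100, a gene of cytochrome c oxidase assembly, with shared exons at chr8:3623371-3624235 and chr8:3625470-3625545. These 941 bases are 51.5% of the Pcp2 exon sequence, and 138 bases of the longer block and 51 of the shorter are annotated as coding in Pcp2. The blocks are those of GENCODE release 21, while the counts were made with a later Ensembl release, per the file names, so the exons that decided the counts may differ, and with them the shares of bases and the values per kb. In Lhx1, which shares 0 exon bases in release 21, the strand columns held 7 to 22 reads more than the unstranded count.

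Most reads of both genes were in the shared exons. They made up 76.5% to 84.8% of the summed Gng13 reads and 55.8% to 59.8% of the summed Pcp2 reads over the 6 libraries. In the shared exons of Gng13 and Chtf18 the values were 118, 136 and 147 CPM in KO and 127, 101.9 and 98.8 CPM in WT. KO replicate 1 was below WT replicate 1, so the groups overlapped. The means were 133 ± 14.6 against 109 ± 15.4 CPM (log2 fold change 0.28, SE 0.10, edgeR adjusted p = 0.197), and this did not pass. With shared and unshared reads summed, Gng13 stood at 154, 177 and 186 CPM in KO and 149.6, 129 and 127 CPM in WT, without overlap. The log2 fold change was then 0.35 (SE 0.08, edgeR adjusted p = 0.0671), and Gng13 did not pass. It did pass in the second strand column alone (edgeR adjusted p = 0.0411), and not in the first.

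The log2 fold change of Pcp2 was less dependent on which reads were used. In the exons shared with Pet100 the values were 264, 281 and 281 CPM in KO and 233, 242 and 212 CPM in WT, again without overlap. The log2 fold change was 0.27 (SE 0.06, edgeR adjusted p = 0.0655), and this did not pass. Like Gng13, Pcp2 passed in the second strand column alone (edgeR adjusted p = 0.0163), and not in the first (0.0575). For the sum of shared and unshared reads, the means were 489 ± 18.8 against 397 ± 22.3 CPM, and the gene passed (log2 fold change 0.31, SE 0.06, edgeR adjusted p = 0.0409). The partner genes were far lower in exons of their own. Per kb of unshared exon, Chtf18 had 1.052 CPM in WT and 1.29 in KO, against 274 and 334 CPM per kb in the exons it shares with Gng13. Pet100 had 13.3 and 12.3 CPM per kb, against 244 and 293 in the exons it shares with Pcp2. Neither partner passed the test on its own exons (edgeR adjusted p = 0.337 for Chtf18 and 0.624 for Pet100).

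**Figure D2:**
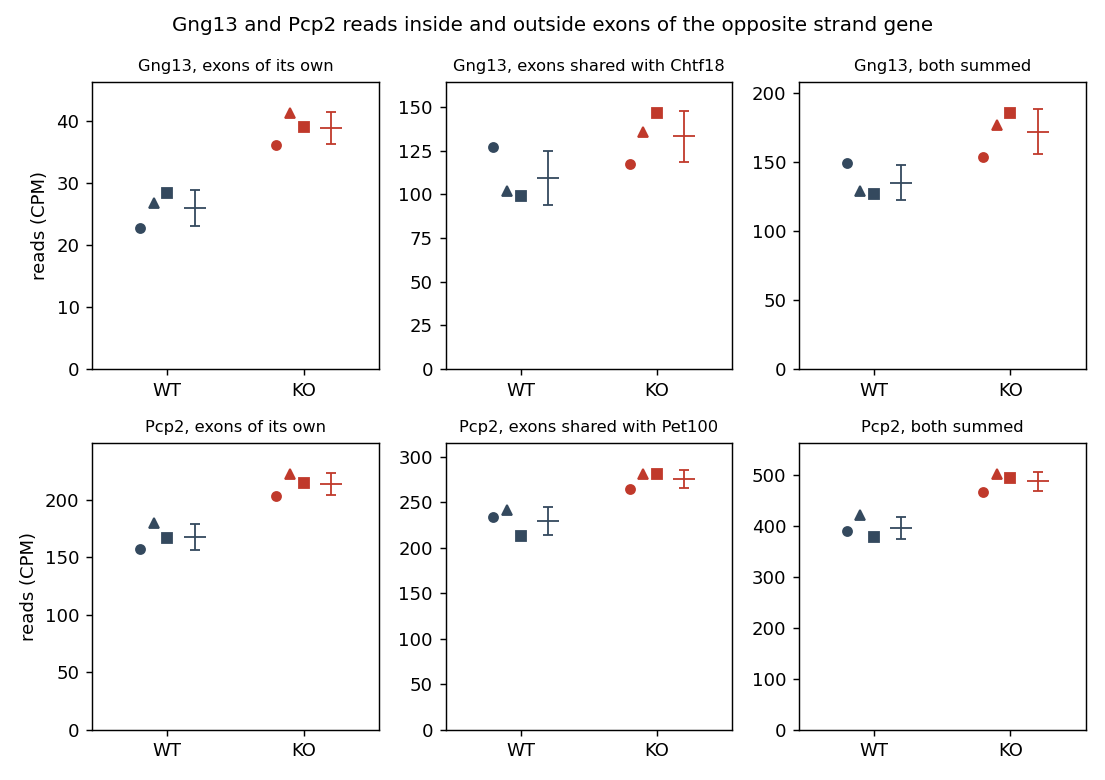
Reads of Gng13 (top) and Pcp2 (bottom) in CPM on axes from 0, in exons of their own, in exons shared with the opposite-strand gene, and in both. Symbols are the replicates as before and bars the mean ± SD of 3 animals. In the shared exons of Gng13 the WT circle at 127 CPM lies above the KO circle at 118 CPM, and in the other panels the groups do not overlap.

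Calb1 (ENSMUSG00000028222, chromosome 4, 15881264 to 15908064, plus strand) encodes calbindin, the calcium buffer by which Purkinje cells are commonly stained. Its levels were 1180.0, 1169.7 and 1199.7 CPM in KO and 1038, 1036 and 924 CPM in WT. The KO libraries lay within a narrow band above all WT libraries. The difference, 1183 ± 15.2 against 999 ± 65.2 CPM or 1.18-fold (95% interval 1.07 to 1.31), did not pass (edgeR adjusted p = 0.104). DESeq2 and edgeR's exact test did call it (adjusted p = 0.00614 and 0.0371), and so did the main test without WT replicate 1 (0.0238). With an offset for GC content the log2 fold change fell from 0.24 to 0.13 (edgeR adjusted p = 0.316); the transcript has 36.8% GC.

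Ppp1r17 (G-substrate; ENSMUSG00000002930, chromosome 6, 56017497 to 56032689, plus strand) encodes a phosphatase inhibitor that cGMP-dependent protein kinase phosphorylates. It stood at 205, 223 and 224 CPM in KO and at 197, 185 and 187 CPM in WT. KO replicate 1 was only slightly above WT replicate 1. The fold was 1.147 (95% interval 1.051 to 1.25, edgeR adjusted p = 0.117), and the gene passed without WT replicate 1 (0.0254) and in no other fit with 1 library left out.

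Pcp4 (PEP-19; ENSMUSG00000090223, chromosome 16, 96467606 to 96525793, plus strand) encodes a small calmodulin-binding protein. Its levels were 43.5, 43.0 and 45.9 CPM in KO and 36.0, 42.2 and 41.3 CPM in WT. The groups were separated by less than 1 CPM, and the 95% interval of the fold, 0.993 to 1.24, held no change (edgeR adjusted p = 0.313). A transcript annotated to Igsf5 on the same strand shares 243 bases, 23.7%, of the Pcp4 exons, and that gene had 0 counts in every library and column. Reads in those bases match both genes on either strand setting, so how many there were was not analysed here.

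Rora (ENSMUSG00000032238, chromosome 9, 68653786 to 69388246, plus strand) was the only transcription factor gene of the 10 whose groups did not overlap. It stood at 432, 387 and 389 CPM in KO and at 354, 314 and 320.1 CPM in WT. All KO libraries were above all WT libraries, at 403 ± 25.1 against 329 ± 21.8 CPM. The 1.22-fold difference (95% interval 1.10 to 1.36) did not pass in the main test (edgeR adjusted p = 0.0681). It passed in DESeq2 (adjusted p = 0.00363), in edgeR's exact test (0.00868) and, in the main test, without WT replicate 1 (0.00843). Rora is also expressed by molecular layer interneurons, so its level in whole tissue is not that of Purkinje cells alone. Only 2.39% to 2.86% of its reads were in exons shared with the antisense gene Gm15511.

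The remaining transcription genes, which act earlier in the life of the cell, did not separate the groups. Lhx1 (ENSMUSG00000018698, chromosome 11, 84518284 to 84525535, minus strand) stood at 65.9, 67.3 and 67.7 CPM in KO and at 64.5, 70.5 and 64.1 CPM in WT. The WT values spanned the KO values on both sides. Its fold was 1.01 with a 95% interval from 0.927 to 1.10 (edgeR adjusted p = 0.916), and a change of the size of that of Gng13 lies outside it.

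Lhx5 (ENSMUSG00000029595, chromosome 5, 120431699 to 120441223, plus strand) encodes the close relative of Lhx1 with which it acts redundantly in Purkinje cell differentiation. It stood at 31.1, 30.9 and 31.5 CPM in KO and at 28.9, 34.7 and 31.7 CPM in WT. The fold was 0.983 (95% interval 0.874 to 1.11, edgeR adjusted p = 0.899). Lhx5 is the only one of the 10 genes on the chromosome of Galnt17, 10.43 Mb from it. The sign of its small difference turned with the count column and with single libraries.

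Skor2 (Corl2; ENSMUSG00000091519, chromosome 18, 76856405 to 76900342, plus strand) encodes a corepressor related to SKI that is needed for Purkinje cell differentiation. Its levels were 11.3, 11.6 and 11.6 CPM in KO and 10.1, 11.7 and 11.3 CPM in WT. The fold was 1.046 (95% interval 0.893 to 1.22, edgeR adjusted p = 0.779). Over the 6 libraries Lhx1, Lhx5 and Skor2 varied more with each other than with Rora. Pearson r of log2 CPM was 0.77 for Lhx1 and Lhx5, 0.65 for Lhx1 and Skor2 and 0.76 for Lhx5 and Skor2, but -0.12, -0.45 and 0.04 for Lhx1, Lhx5 and Skor2 with Rora (n = 6 libraries, and values of 1 library share its depth and composition). Skor2 also followed Pcp4 (r 0.89), Pcp2 (0.70) and Gng13 (0.69), each more closely than it followed Lhx1.

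Foxp2 (ENSMUSG00000029563, chromosome 6, 14901349 to 15441977, plus strand) encodes a forkhead repressor that Purkinje cells share with some neurons of the brainstem and other regions. It stood at 9.42, 8.17 and 9.24 CPM in KO and at 7.16, 9.15 and 17.4 CPM in WT. WT replicate 3 alone was far above the others, and WT replicates 1 and 2 were within or below the KO range. The log2 fold change was -0.33 with a 95% interval from -0.92 to 0.26 (edgeR adjusted p = 0.553), and without WT replicate 3 it was 0.15 (0.666).

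The same library held high values of genes that mark neurons outside the cerebellar cortex. Slc6a4, the serotonin transporter gene, was at 7.73 CPM in WT replicate 3 and at 0 to 0.129 CPM in the other 5 libraries. Tph2, of serotonin synthesis, was at 6.61 CPM there and at 0.993 to 1.57 CPM elsewhere, and Slc6a2, the noradrenaline transporter gene, at 3.40 against 0.293 to 1.118 CPM. The vesicular glutamate transporter gene Slc17a6 was at 109 against 56.7 to 75.2 CPM. Lhx9, a LIM homeobox relative of Lhx1, was at 13.9 against 0.397 to 1.11 CPM. Slc6a4 and Lhx9 were singled out after their values were seen. Of the 12 listed markers of cerebellar nuclei and brainstem 4 passed the filter, and their summed level was 63.0 to 71.0 CPM in KO and 61.8 to 123 CPM in WT, with 0 called. The part of these neurons in the Foxp2 value was not tested.

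**Figure D3:**
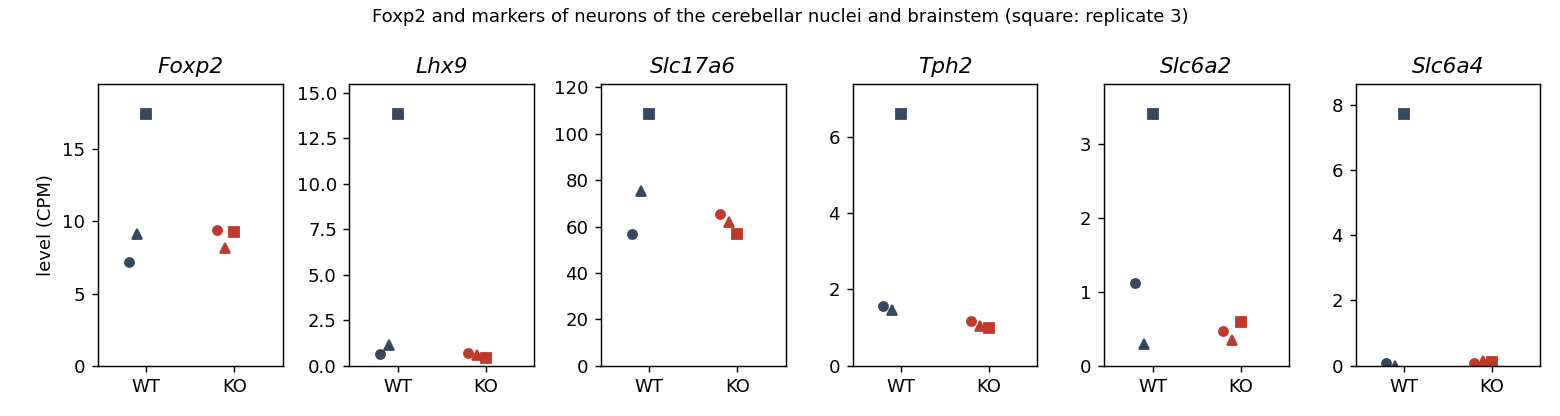
Foxp2 beside Lhx9, Slc17a6, Tph2, Slc6a2 and Slc6a4 in each library, in CPM on axes from 0, with circles, triangles and squares for replicates 1, 2 and 3. The WT square, replicate 3, is the highest point in every panel, with 17.4 CPM for Foxp2 and 7.73 CPM for Slc6a4.

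The levels of the 10 genes relative to one another can be compared per length only. Per kb of exon not shared with another gene, the WT order from high to low was Calb1, Pcp2, Ppp1r17, Gng13, Pcp4, Rora, Lhx1, Lhx5, Skor2 and Foxp2. Calb1 was at 206 ± 13.5 CPM per kb in WT and Pcp2 at 189 ± 13.1, and their ranges overlapped in both groups (in KO 241 to 248 and 229 to 251). Ppp1r17 followed at 108 ± 3.90, Gng13 at 69.5 ± 7.88 and Pcp4 at 50.9 ± 4.27 CPM per kb in WT, and from Pcp2 down to Foxp2 no neighbours overlapped in range in either group. In KO Gng13 came to 104 ± 6.92 CPM per kb, nearer to Ppp1r17 at 124 ± 5.91. The transcription factor genes were lower. Rora was at 25.4 ± 1.68, Lhx1 at 16.3 ± 0.872, Lhx5 at 12.1 ± 1.10, Skor2 at 3.50 ± 0.267 and Foxp2 at 0.689 ± 0.334 CPM per kb in WT. The place of Gng13 in this order depended on the shared exons: counted over all its exons and reads it was at 175 CPM per kb in WT and 223 in KO, above Ppp1r17, and Pcp2 at 217 and 267, above Calb1 at 206 and 244.

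**Figure D4:**
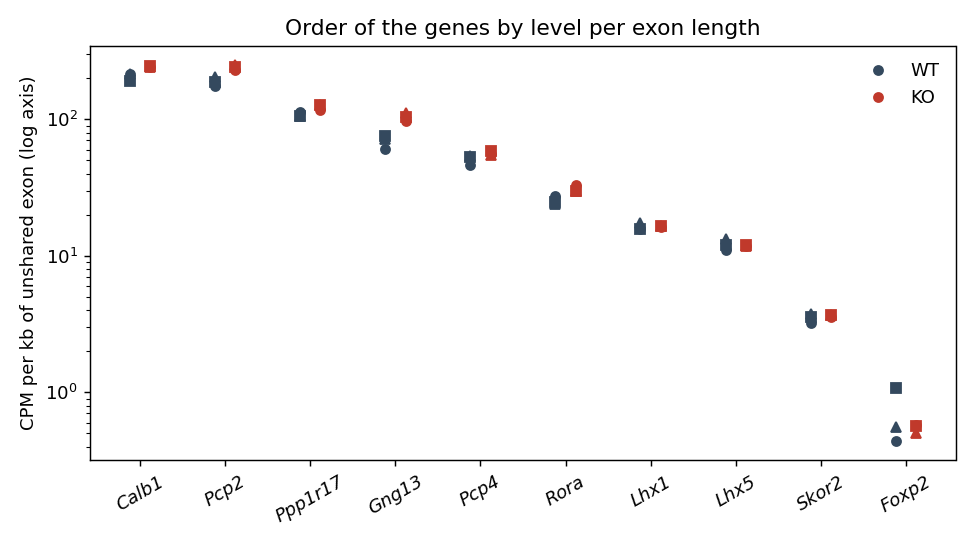
Level of each gene per kb of unshared exon, in CPM per kb on a log axis, for WT (dark) and KO (red) libraries, with circles, triangles and squares for replicates 1, 2 and 3. The genes of the mature cell stand at the left, Lhx1, Lhx5 and Skor2 between 3.204 and 17.3 CPM per kb, and Foxp2 at the right with WT replicate 3 above its other libraries.

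Other genes enriched in Purkinje cells also had positive medians. Of 19 tested, 1 rose, 0 fell and 18 did not pass, 16 had a log2 fold change above 0 (48.5% of all tested genes did), and the median was 0.12. The member that passed was Car8, a carbonic anhydrase-related protein gene that restrains inositol trisphosphate signalling, with 1627, 1666 and 1678 CPM in KO and 1403, 1220.4 and 1139.9 CPM in WT. Its log2 fold change was 0.40 (edgeR adjusted p = 0.0371). The call did not hold when WT replicate 2 or any single KO replicate was left out (highest edgeR adjusted p = 0.189). All KO libraries were above all WT libraries in 10 of the 19.

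**Figure D5:**
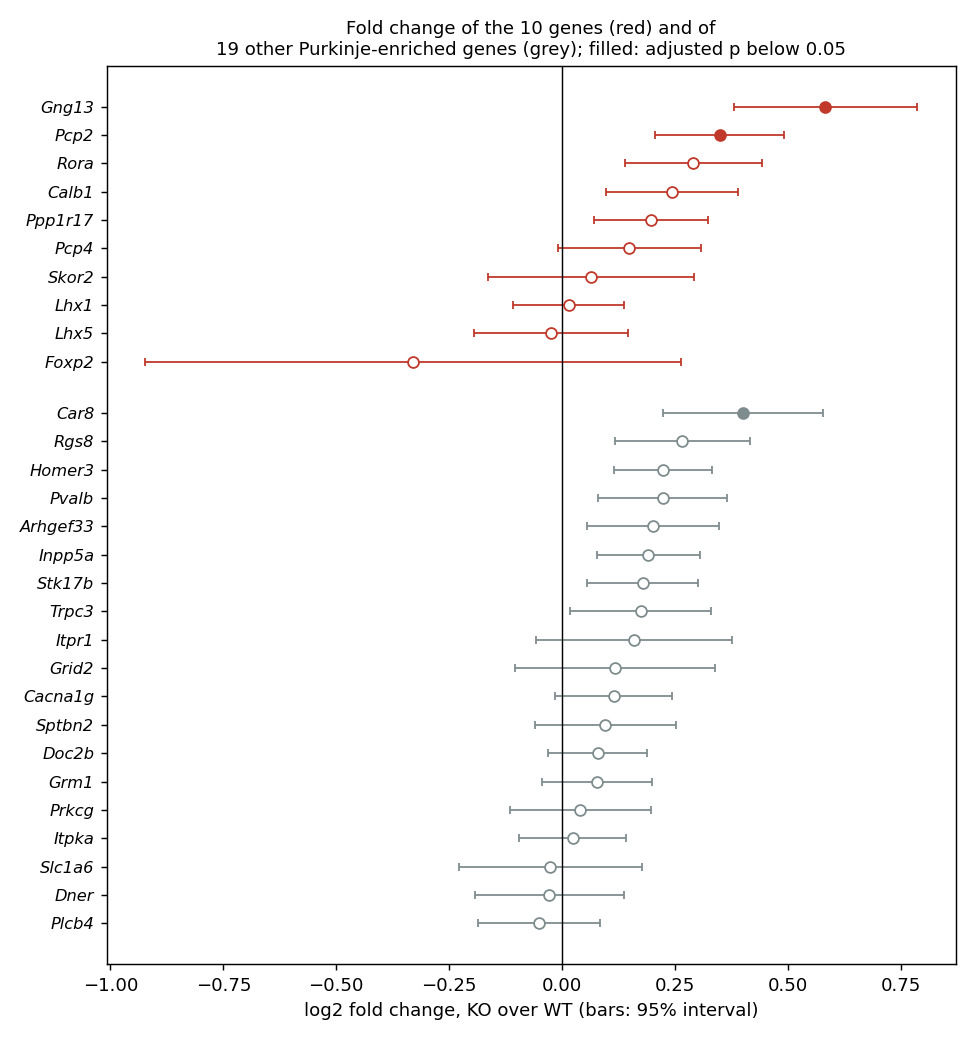
Log2 fold change of KO over WT with its 95% interval for the 10 genes (red) and for 19 other Purkinje-enriched genes (grey), ordered by size in each set. Filled points passed at an adjusted p below 0.05, Gng13 at 0.58 and Pcp2 at 0.35 among the 10 and Car8 at 0.40 among the others, and the interval of Foxp2 is the widest.

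Measured against these 19 genes, the members split. For each library the mean log2 CPM of the 19 was subtracted from that of the member. Gng13 was then 0.45 higher in KO on the log2 scale, Pcp2 0.22 and Calb1 0.11, each without overlap of the groups. Lhx5 was lower by -0.16 and Lhx1 by -0.12, also without overlap. Each of these 5 had the smallest p that 3 against 3 animals allow (exact permutation test, two-sided, p = 0.1, adjusted 0.2 over the 10 genes), so none could pass. Rora (0.16), Ppp1r17 (0.06), Pcp4 (0.02), Skor2 (-0.07) and Foxp2 (-0.36) overlapped. With the median of the 19 in place of the mean, the differences of Lhx1, Lhx5 and Skor2 turned positive (0.04, 0.00081 and 0.09), so the lower place of these genes depends on how the 19 are centred. Calb1, Pcp2 and Gng13 stood at 0.27, 0.37 and 0.61 with the median. Without WT replicate 3 the difference of Calb1 was 0.039, and without WT replicate 2 those of Lhx1 and Lhx5 were -0.062 and -0.079.

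In the lists of genes that act with the 10, only Pcp2 passed, itself a member. Of 5 known Rora targets, the members Pcp2 and Pcp4 among them, 1 rose, Pcp2, 0 fell and 4 did not pass. The median was 0.15, which is the value of Pcp4, and the non-members Slc1a6, Itpr1 and Shh overlapped between the groups. Of 17 tested transcription regulators of the Purkinje and GABAergic lineage 0 rose and 0 fell, 1 was lower at an unadjusted p below 0.05, and the median was -0.03. That gene was Zfp423, at 44.5, 36.1 and 35.3 CPM in KO and 44.9, 49.5 and 45.5 CPM in WT (edgeR adjusted p = 0.172), and Ldb2 had the next smallest p (adjusted 0.392). Of 31 protein partners of the members (calmodulins, G protein subunits, phosphatases, LIM and forkhead cofactors) 0 passed, 2 were higher and 1 lower at an unadjusted p below 0.05, and the median was -0.01. Gnai1, an alpha subunit of the class that Pcp2 binds, was at 147, 143 and 140.03 CPM in KO and 114, 122 and 131 CPM in WT (edgeR adjusted p = 0.103). The phosphatase genes Ppp1cb and Ppp2ca had adjusted p values of 0.113 and 0.183.

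Of 24 tested family relatives of the members, 2 fell and 0 rose, with a median of -0.05. The 2 that fell are relatives of Calb1 and Pcp4. Calb2, the calretinin gene and a relative of Calb1 that granule and unipolar brush cells express, was at 336, 324 and 357 CPM in KO and at 409.8, 429 and 498 CPM in WT (log2 fold change -0.39, edgeR adjusted p = 0.0366). Pcp4l1, the relative of Pcp4, was at 32.3, 34.1 and 38.9 CPM in KO and at 46.9, 53.4 and 68.5 CPM in WT (log2 fold change -0.68, edgeR adjusted p = 0.0261). Neither overlapped between the groups. Without WT replicate 3, the library with high brainstem markers, the log2 fold change was -0.30 for Calb2 and -0.51 for Pcp4l1 (edgeR adjusted p = 0.0379 and 0.0177). Neither call held when WT replicate 2 or any single KO replicate was left out (highest edgeR adjusted p = 0.207 for Calb2 and 0.143 for Pcp4l1). Of 9 other gamma subunit genes tested 0 passed, and Gng2, Gng3 and Gng5 were lower at an unadjusted p below 0.05.

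Markers of other cell types in the tissue were measured beside these values, and their part in the members' differences was not tested. Of 10 granule cell markers 0 passed (summed level 5384 to 5493 CPM in KO and 4955 to 5361 in WT), of 8 astrocyte and Bergmann glia markers 0 (3599.8 to 3695 and 3497 to 3692), and of 8 markers of dividing cells 0 (90.9 to 127 and 120.3 to 162). At an unadjusted p below 0.05 there were 1 higher and 0 lower granule markers, 0 higher and 1 lower glial markers and 0 higher and 3 lower dividing cell markers. All 8 dividing cell markers had a log2 fold change below 0, with a median of -0.37, though the groups overlapped in each. The median was 0.06 for the granule markers and 0.08 for the glial markers. Of 11 interneuron markers 1 fell, the glycine transporter gene Slc6a5, at 24.3, 25.9 and 28.3 CPM in KO and 33.1, 44.1 and 41.9 CPM in WT (log2 fold change -0.60, edgeR adjusted p = 0.0225). Leaving out WT replicate 2 or any single KO replicate ended this call (highest edgeR adjusted p = 0.127). Of 8 oligodendrocyte markers 2 rose, Ermn and Cldn11, and 6 were higher at an unadjusted p below 0.05. All 8 had a log2 fold change above 0, with a median of 0.19 beside 0.17 for the 10 Purkinje genes, and 6 had every KO library above every WT library. Their summed level was 13777 to 14431 CPM in KO against 12485 to 12628 in WT. Of 7 choroid plexus markers 5 fell (Kl, Folr1, Kcnj13, Aqp1 and Sostdc1). All 7 had every KO library below every WT library, as 12.2% of all tested genes did. The summed level of the 7 was 16.4 to 459 CPM in KO against 1144 to 2083 in WT. Ttr, which did not pass (edgeR adjusted p = 0.154), was at 4.26 to 431 CPM in KO and 1096 to 1995 CPM in WT.

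The 5 genes outside the 10 that followed their mean profile most closely over the 6 libraries were taken from 10414 protein-coding genes of at least 10 CPM. They were 2310061I04Rik, Tmem205, Cygb, mt-Nd3 and Sdhc, with Pearson r of log2 CPM from 0.979 to 0.995 (n = 6 libraries). The mean profile was lowest in WT replicate 1, at -1.08 in SD units, and between 0.33 and 0.65 in the KO libraries. Of these 5 genes only mt-Nd3 passed the test (log2 fold change 0.99, edgeR adjusted p = 0.0382), with 19.1, 17.5 and 18.8 CPM in KO and 5.96, 12.03 and 10.4 CPM in WT.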

How the data were processed

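TruSeq libraries of 6 cerebella were sequenced as paired reads, per the labels' protocols. The authors deposited raw gene counts for each library (unstranded and 1 column per strand). STAR 2.7.5a and mm10/GRCm38 are named in the submitters' processing notes, and Ensembl release 102 in the file names. The sources used here do not give the counting options. Unmapped, multimapping, unassigned and ambiguous reads (4.07% or less of all reads ambiguous in KO and 4.35% to 4.44% in WT) stayed out of library sizes. Positions and symbols came from GENCODE mouse release 21 (GRCm38), which matched 99.5% of gene identifiers.

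Genes were tested with edgeR 4.0.16 in R 4.3.3 (TMM, default filter with minimum count 10, quasi-likelihood F test, two-sided, adjusted p threshold 0.05). SEs and 95% intervals came from the F statistic and cover the spread between animals. Levels are CPM on TMM-scaled library sizes, and log2 CPM used a prior count of 2. Alternatives used DESeq2 1.42.0 (all 33485 genes with any count), limma 3.58.1 (voom), edgeR's exact test, other scalings, no filter, the strand columns, a GC offset and each library left out. The steps were run on simulated data in which the changed genes had log2 fold changes larger in size than those of the 10 genes. Recovery of smaller changes was not tested. Replicate numbers follow deposition order and pair nothing.

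The members and lists were chosen with earlier results of these data known. All members were named. Of each other list, genes that passed were named, or otherwise up to 3 with the smallest p, and genes that overlap a member. The 5 most alike genes were ranked by Pearson r with the mean z-score of the members.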

Additional observations from a re-analysis of the deposited data

How the results depend on the processing

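No paired analysis was possible because the labels share no replicate number, litter or batch between the groups. The count of members called higher, 2 in the main test, was 4 without a filter on low counts, under edgeR's exact test and under DESeq2, which was also run without that filter, on 33485 genes (Gng13, Pcp2, Calb1 and Rora each time), and 1 with the strand columns summed (Pcp2) or with the first strand column alone (Rora). It ranged from 0 to 5 with single libraries left out: 0 without KO replicate 2 or 3, 1 without KO replicate 1 (Gng13) or WT replicate 2 (Pcp2), and 5 without WT replicate 1. The count of members called lower was 0 in every setting run. Over all genes, calls higher and lower went from 143 and 159 to 959 and 962 without WT replicate 1, to 39 and 79 without KO replicate 1, to 28 and 53 without KO replicate 2, to 43 and 82 without KO replicate 3, to 58 and 79 without WT replicate 2, to 275 and 291 in DESeq2, to 495 and 405 in edgeR's exact test and to 803 and 820 without a filter. The reason for these shifts was not tested.

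Signs turned only for members near 0 or for Foxp2. In the first strand column alone the log2 fold change of Lhx5 was 0.15. With single libraries left out, the log2 fold change ranged from -0.0063 to 0.062 for Lhx1 (below 0 without WT replicate 1 or 3), from -0.090 to 0.045 for Lhx5 (above 0 without WT replicate 2) and from -0.59 to 0.15 for Foxp2 (above 0 without WT replicate 3). Relative to the 19 other Purkinje-enriched genes, Pcp4 ranged from -0.047 to 0.073 (below 0 without KO replicate 3 or WT replicate 1), and Lhx1, Lhx5 and Skor2 were at 0.039, 0.00081 and 0.089 with the median of the 19. The reads in shared exons were tested alone after the data were seen. Precision is set by the 3 animals of a group, and for Foxp2 and Skor2 also by counts of 156 to 359 and 199 to 336 reads per library.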
